A study of Mus musculus with 6 samples.

Results

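The mRNAs of 4 feedback inhibitors of ERK signalling, Dusp5, Dusp6, Dusp9 and Spry2, were described in the mouse embryo fibroblast line NIH-3T3, which is immortal in culture. They were taken by gene symbol from the 581 genes of the joined table, which the authors had selected on these libraries as differentially expressed. The 4 genes were then chosen by their normalised read counts on plates and scaffold, so their differences between groups are given as a description, with no test. RNA sequencing covered wild-type cells grown on standard culture plates (3 libraries) and the same cells grown on a scaffold called Nanopore #3 (3 libraries). All cells were kept in DMEM with 10% fetal bovine serum. The labels give neither its material nor the time in culture, nor whether the replicates were separate cultures. The spread between libraries may therefore be technical, and the adjusted p-values behind the counts below measure only that spread.

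Growth factor receptors activate ERK through RAS, RAF and MEK, and ERK in turn induces the genes for its own inhibitors. The dual-specificity phosphatases of the MAP kinase phosphatase family remove the activating phosphates from MAP kinases. Dusp5 acts in the nucleus and Dusp6 in the cytoplasm, both with a strong preference for ERK. Dusp9 is a cytoplasmic phosphatase that acts on ERK and also on p38. Spry2, a Sprouty protein, works further upstream, between the receptors and RAF. Of these mRNAs, those of Dusp6 and Spry2 are widely used as a readout of ERK output.

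The sequences upstream of these genes are shown first because they differ in the motifs they hold. Whether these motifs bear on the mRNA levels was not tested. RefSeq promoter windows (GRCm38.p6, from 250 bases before to 50 bases after the annotated start) were at hand for 3 of the 4 genes, Dusp5, Dusp6 and Spry2. Each is printed 5′ to 3′ on the strand of its gene, up to the base before the earliest annotated start. The Dusp5 stretch is chr19:53528895-53529108 (plus strand), the Dusp6 stretch is chr10:99262981-99263230 (plus strand) and the Spry2 stretch is chr14:105896820-105897069 (minus strand). Capitals mark the CArG box, the motif of serum response factor, and the core GGAA of ETS factors, which reads TTCC when it lies on the opposite strand.
Dusp5: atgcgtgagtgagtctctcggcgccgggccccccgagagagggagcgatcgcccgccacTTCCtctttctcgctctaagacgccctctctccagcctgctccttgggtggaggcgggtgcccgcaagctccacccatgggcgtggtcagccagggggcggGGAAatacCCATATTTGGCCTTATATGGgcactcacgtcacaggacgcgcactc
Dusp6: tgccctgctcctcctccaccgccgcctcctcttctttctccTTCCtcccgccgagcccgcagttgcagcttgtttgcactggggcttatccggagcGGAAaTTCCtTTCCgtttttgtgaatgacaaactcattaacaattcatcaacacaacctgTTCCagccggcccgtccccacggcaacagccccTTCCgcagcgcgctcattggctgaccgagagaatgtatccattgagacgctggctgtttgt
Spry2: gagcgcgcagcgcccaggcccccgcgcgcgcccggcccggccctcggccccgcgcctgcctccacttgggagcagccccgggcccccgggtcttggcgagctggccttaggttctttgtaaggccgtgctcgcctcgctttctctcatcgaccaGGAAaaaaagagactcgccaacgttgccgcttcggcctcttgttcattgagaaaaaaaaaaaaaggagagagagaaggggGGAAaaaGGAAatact

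Dusp5 had 2 CArG boxes directly next to each other, CCATATTTGG and CCTTATATGG, which began 82 and 72 bases before the RefSeq start. Neither the Dusp6 nor the Spry2 window held one. Of all 32851 promoter windows, 1.63% held at least 1 CArG box and 6 windows held 2 or more, with both strands searched and a palindromic match counted once. ETS cores were found 3 times in the Dusp5 window, 6 times in that of Dusp6 and 5 times in that of Spry2, against a median of 3 over all windows, of which 96.0% held at least 1. The ETS counts cover the whole windows, and some of these cores in Dusp5 and Spry2 lie past the printed stretches. No marked matches overlapped. The cAMP response element TGACGTCA and the AP-1 motif TGANTCA had no match in these 3 windows, while 1.79% and 7.81% of all windows held them. A match is a stretch of letters and was not tested as a binding site. The whole Dusp5 window also lies within an exon of AC137853.2, a gene on the opposite strand.

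**Figure D1:**
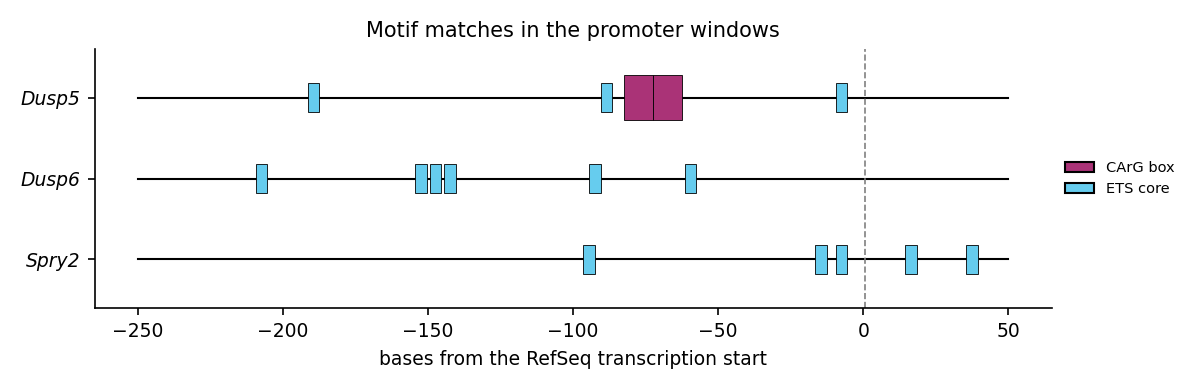
Positions of CArG boxes and ETS cores in the promoter windows of Dusp5, Dusp6 and Spry2, in bases from the RefSeq transcription start (dashed line). The 2 CArG boxes of Dusp5 lie side by side, and the 3, 6 and 5 ETS cores are spread over the windows.

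On the scaffold all 4 inhibitor mRNAs were higher in every library than in any plate library, Dusp5 by 4.50-fold and the other 3 by 2.08-fold to 2.28-fold. Each value is a read count that the authors had divided by the size factor of its library, with no correction for gene length. Over the table the smallest ratio between group means, larger over smaller, was 1.996, so Dusp9 and Spry2 lie just inside the range of differences that the table holds. In bulk RNA, more mRNA per cell and more cells with the mRNA cannot be told apart.

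Dusp5 (ENSMUSG00000034765, chromosome 19, 53529109 to 53542431, plus strand, GRCm38 coordinates) encodes the nuclear ERK phosphatase. Its normalised read counts were 597, 625 and 579.6 in the plate libraries and 2652, 2760.2 and 2699 in the scaffold libraries. The lowest scaffold library held 4.25 times the value of the highest plate library. The group means were 600.3 ± 22.7 and 2704 ± 54.2 (SD, n = 3 each), a log2 difference of 2.17 on the log2(value + 1) scale (SE 0.0731). It ranked 29 among the 187 genes that were higher on the scaffold. Of its exon bases, 22.1% (547 bases, all in the first exon) are shared with AC137853.2. Strand-aware counting is not stated in the sources used here, so reads from that stretch cannot be assigned to either gene with certainty. AC137853.2 itself was not analysed here.

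Dusp6 (ENSMUSG00000019960, chromosome 10, 99263231 to 99267489, plus strand), the cytoplasmic ERK phosphatase, had the highest counts of the 4 genes. The plate libraries held 2199, 2100.2 and 2127, and the scaffold libraries 4744, 4897 and 4983. No scaffold library came closer to the plates than 2.16 times the highest plate value. Its mean went from 2142 ± 51.2 to 4874 ± 121 (n = 3 each), a log2 difference of 1.19 (SE 0.0596). Among all 581 genes its mean was the 19th highest on plates and the 13th highest on the scaffold. The annotation lists 4 transcripts for this gene, and the counts do not separate them.

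Spry2 (ENSMUSG00000022114, chromosome 14, 105891947 to 105896819, minus strand), the receptor-proximal antagonist, held 542, 519 and 586 normalised counts in the plate libraries, against 1189, 1143 and 1218 on the scaffold. The groups were again apart, by a factor of at least 1.95. Mean counts were 549 ± 34.4 and 1183 ± 37.7 (n = 3 each), a 2.16-fold difference (log2 difference 1.11, SE 0.0861).

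Dusp9 (ENSMUSG00000031383, chromosome X, 73639419 to 73643514, plus strand), the phosphatase that also acts on p38, was the least abundant of the 4. Plate libraries held 231, 197 and 207, scaffold libraries 432, 465 and 422. This was the narrowest gap, with the lowest scaffold library at 1.83 times the highest plate library. The mean went from 212 ± 17.5 to 439.5 ± 22.6 (n = 3 each), a log2 difference of 1.05 (SE 0.112). Exons of Dusp6, Spry2 and Dusp9 shared no base with another annotated gene.

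**Figure D2:**
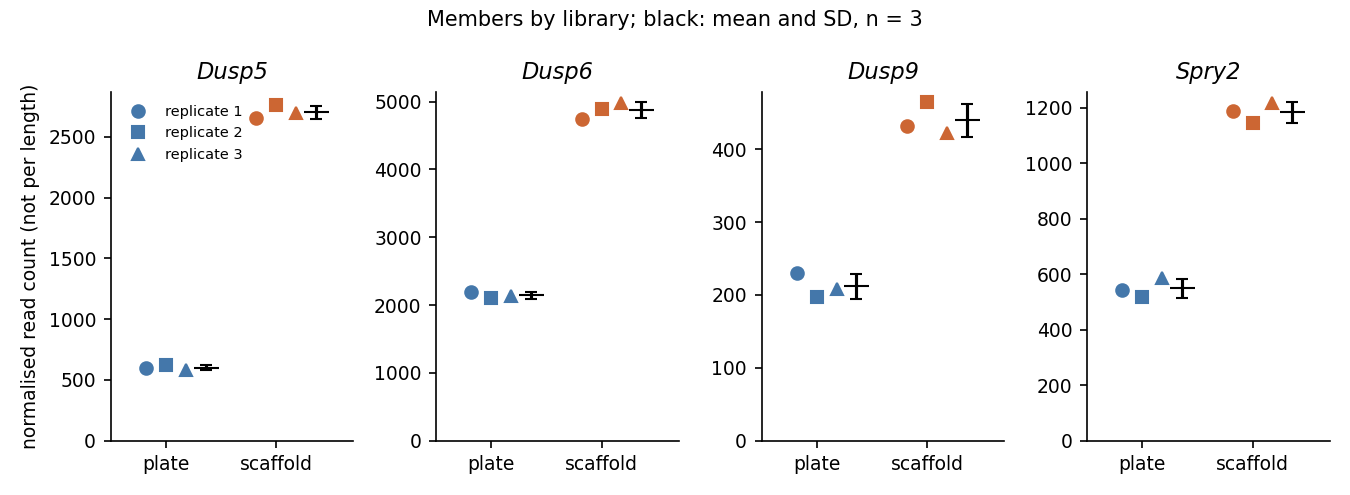
Normalised read counts of the 4 inhibitor genes in each library (points, with a shape per replicate number), with the group mean and SD (black, n = 3). In each gene the 3 scaffold libraries lie above the 3 plate libraries, most widely for Dusp5 (600.3 to 2704) and least for Dusp9 (212 to 439.5).

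All 4 genes were higher with an adjusted p under 0.05 (limma, Benjamini-Hochberg), where 32.2% of all genes in the table passed in that direction. Their groups did not overlap, as in 32.2% of all genes in the same direction. Because the authors chose the table on this contrast, nothing further is read from these counts. The median log2 difference was 1.15 over the 4 inhibitors, 1.39 over the 187 higher genes and -1.16 over all 581 genes. Rescaling the libraries to equal medians of the table's genes, most of which are lower on the scaffold, raised the log2 differences to between 1.81 (Dusp9) and 2.93 (Dusp5). Quantile normalisation lowered that of Dusp6 from 1.19 to 0.59 and that of Dusp5 to 1.75, and all 4 genes stayed higher under both. Dusp5 exceeded 84.5% of the higher genes in size of difference, Dusp6 28.9%, Spry2 16.6% and Dusp9 9.63%.

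**Figure D3:**
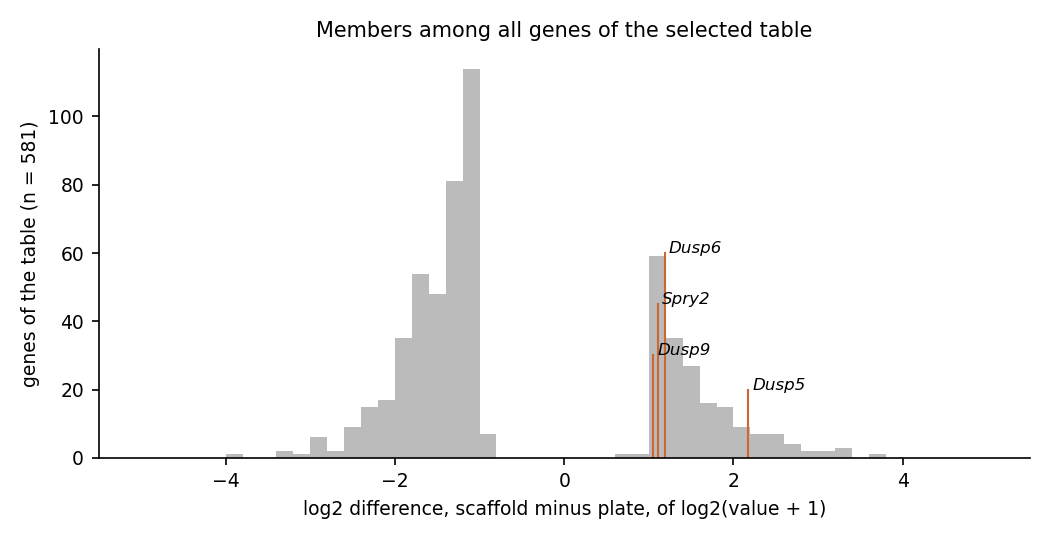
Distribution of log2 differences (scaffold minus plate, on the log2(value + 1) scale) over the 581 genes of the selected table, with the 4 inhibitor genes marked by lines. Values around 0 are missing because of the selection, Dusp9, Spry2 and Dusp6 lie between 1.05 and 1.19, and Dusp5 lies at 2.17.

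Levels of different genes were compared per kilobase of exon, using the deposited gene lengths of 2473 bases for Dusp5, 3132 for Dusp6, 2722 for Dusp9 and 2087 for Spry2. The Dusp5 length includes the 547 bases shared with AC137853.2, and how reads there were counted is not stated. The level of Dusp5 per kilobase, its ratios and shares, and its order against Spry2 on plates are uncertain to that extent. On plates Dusp6 stood first at 684 ± 16.4 normalised counts per kilobase (n = 3). Spry2 at 263 ± 16.5 and Dusp5 at 243 ± 9.19 followed and did not differ beyond their spread: single plate libraries ran from 249 to 281 for Spry2 and from 234 to 253 for Dusp5. Dusp9 was lowest, at 77.7 ± 6.42.

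On the scaffold Dusp6 was still first, at 1556 ± 38.7 per kilobase, but Dusp5 now came second at 1093 ± 21.9. Spry2 followed at 567 ± 18.1 and Dusp9 came last at 161 ± 8.31 (n = 3 for each). No 2 neighbours in this order overlapped. The level of Dusp5 relative to Spry2, per kilobase, was 0.930, 1.02 and 0.834 in the plate libraries and 1.88, 2.04 and 1.87 in the scaffold libraries. Relative to Dusp6 it was 0.344, 0.377 and 0.345 in the plate libraries, against 0.708, 0.714 and 0.686 in the scaffold libraries. These ratios within a library do not depend on the size factor by which the library was scaled. The same holds for the ratio of Spry2 to Dusp6, which was 0.385 ± 0.0252 on plates and 0.364 ± 0.0131 on the scaffold, with overlapping libraries. Dusp9 relative to Dusp6 was 0.114 ± 0.00663 and 0.104 ± 0.00600, also with overlap.

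Summed over the 4 genes, the level per kilobase was 1267 ± 22.1 on plates and 3378 ± 55.6 on the scaffold, 2.67-fold higher. The nuclear phosphatase Dusp5 made up 19.2% ± 1.00 of that sum on plates and 32.4% ± 0.470 on the scaffold. Dusp6 went from 54.0% ± 0.542 to 46.1% ± 0.415, Spry2 from 20.7% ± 1.18 to 16.8% ± 0.582 and Dusp9 from 6.13% ± 0.405 to 4.78% ± 0.249 (SD, n = 3 for each). Shares add up to the whole, so a larger share of Dusp5 by itself makes the others smaller. The levels of Dusp6, Spry2 and Dusp9 all rose, and their ratios to each other given above overlapped between groups.

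**Figure D4:**
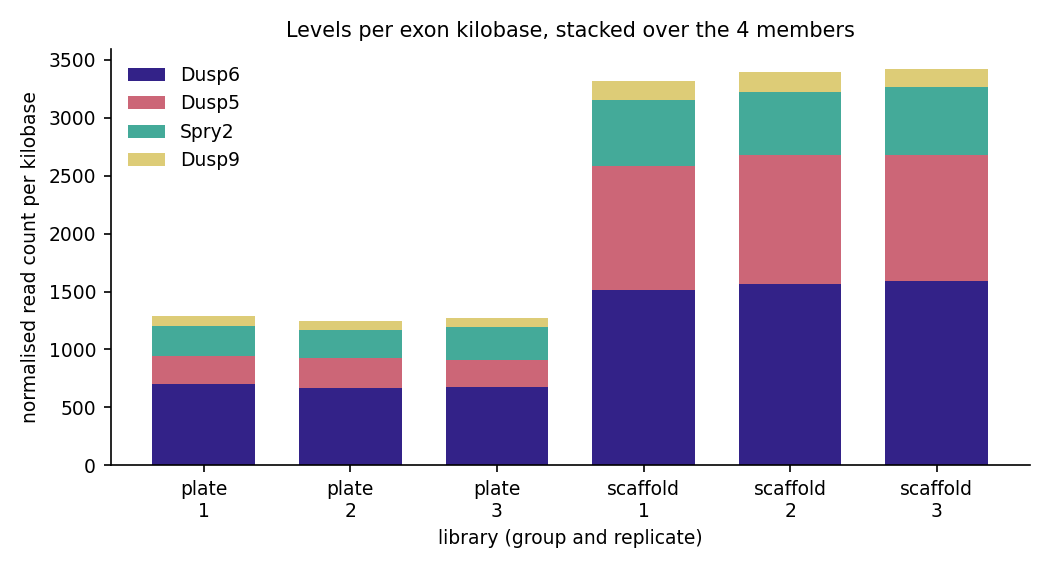
Normalised read count per kilobase of exon in each library, stacked over the 4 inhibitor genes. The summed level is about 1267 on plates and 3378 on the scaffold, and the Dusp5 segment widens from 19.2% to 32.4% of the bar.

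Within each group the inhibitor mRNAs had coefficients of variation from 2.01% to 8.26%, and the error from counting reads alone, averaged over a group's libraries, came to 1.47% to 6.77%. Whole reads could be recovered in 5 libraries, and there a member had between 191 reads (Dusp9 on plates) and 4623 reads (Dusp6 on the scaffold). The coefficient of variation of Dusp5 was 3.78% on plates and 2.01% on the scaffold, beside a mean counting error of 4.01% and 1.96% (on the scaffold from replicates 1 and 2 alone). For Dusp6 it was 2.39% and 2.49% (counting error 2.12% and 1.47%). Spry2 varied by 6.27% and 3.18% (counting error 4.20% and 2.99%) and Dusp9 by 8.26% and 5.15% (counting error 6.77% and 4.83%). The median over the 211 genes with a mean of at least 50 in both groups was 5.68% on plates and 10.1% on the scaffold. No library was highest or lowest in all 4 genes: among scaffold libraries, replicate 2 was highest for Dusp5 and Dusp9, and replicate 3 for Dusp6 and Spry2.

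Around the inhibitors, 12 of 134 other symbols of the ERK pathway and related MAP kinase lists were in the table, 10 higher and 2 lower by the same limma test (32.2% and 67.5% of all genes). Of the 10 MAP kinase phosphatases on the list, Dusp5, Dusp6 and Dusp9 had a row, and of 7 Sprouty and Spred genes only Spry2 had one. No row was found for 15 other inhibitors of receptors, RAS or ERK, for 27 genes of the RAS, RAF, MEK and ERK core, or for 20 genes of the p38 and JNK pathways. Genes with no row were not analysed here, and nothing follows for them from that.

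Upstream of ERK, 3 of 20 listed ligands of receptor tyrosine kinases were in the table and all were higher, as were 32.2% of all genes. Hbegf, a ligand of the EGF receptor, held 229, 248 and 222 in the plate libraries, against 767, 771 and 799 on the scaffold (log2 difference 1.74, SE 0.0966). Ereg, another EGF receptor ligand, had a log2 difference of 1.61, and Fgf2, the basic fibroblast growth factor, one of 1.11, close to that of Spry2. Of 15 listed receptors, 1 had a row, Erbb3, which needs a partner receptor for kinase activity. It was lower, as were 67.5% of all genes, at 97.0 ± 13.7 on plates and 44.5 ± 3.38 on the scaffold (n = 3 each). Epha4, also a receptor, is on the list of ERK targets instead.

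Of 24 genes listed as ERK targets, 8 had a row, 7 higher and 1 lower (32.2% and 67.5% of all genes). The table was selected on this contrast and the lists were chosen with earlier results known. Nothing is therefore read from this count or from those of the other lists. The median log2 difference of the 8 was 1.50. The stress-inducible Ier3 was 3.29-fold higher and Plaur, the urokinase receptor, 2.86-fold. Phlda1, a pleckstrin homology domain protein, went from 346 ± 45.1 to 703 ± 53.2 (n = 3 each). Epha4, an ephrin receptor, was the gene that was lower, from 80.8 ± 6.43 to 26.3 ± 4.83 (n = 3 each). The zinc finger factor Egr1 behaved unlike the inhibitors in its spread: its scaffold libraries held 1327, 923 and 623, a coefficient of variation of 36.9%. In the same libraries Dusp5 varied by 2.01%. Egr3, a related factor, had a log2 difference of 2.08, close to the 2.17 of Dusp5.

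**Figure D5:**
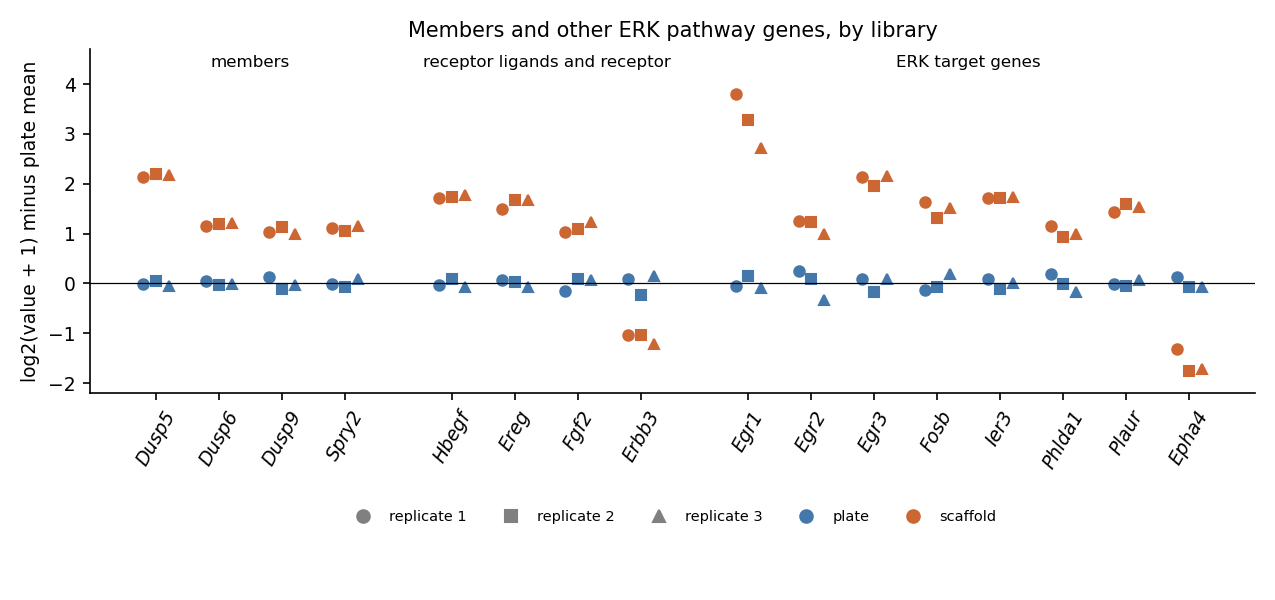
Values per library of the 4 inhibitor genes and of the listed genes with a row: 3 ligands, 1 receptor and 8 ERK targets. They are shown on the log2(value + 1) scale after subtracting the plate mean (plate and scaffold by colour, replicate number by shape). Egr1 spreads over the scaffold libraries, while the inhibitors stay close together, and Erbb3 and Epha4 lie below 0.

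The genes most like each inhibitor were found by the root mean square distance between profiles over the 6 libraries. Profiles were log2(value + 1) after subtracting the plate mean. A small distance therefore mainly means a similar log2 difference between the groups, the contrast on which the table was selected. Shared regulation was not tested. Candidates were 234 genes with a mean of at least 50, leaving out symbols of the Gm, Rik, AC, BC or mt- kind. Closest to Dusp5 were Kcnh2, a potassium channel gene (distance 0.106), Plau, the urokinase plasminogen activator (0.116), and Sema7a, a membrane-anchored semaphorin (0.130). Kcnh2 had means of 179 and 891, a 4.97-fold difference. Dusp6 lay nearest to Lss, the lanosterol synthase of cholesterol synthesis (0.0384), then to Odc1, the ornithine decarboxylase of polyamine synthesis (0.0482), and to Klhl21, an adaptor of a ubiquitin ligase (0.0511). Lss and Klhl21 were also the nearest to Spry2 (0.0556 and 0.0615), followed by Pmepa1, an inhibitor of TGF-beta signalling (0.0660). For Dusp9 they were Msmo1, a sterol oxidase (0.0472), Fgfbp3, an FGF-binding protein (0.0499), and Ccl2, a chemokine (0.0584). Among the inhibitors themselves Dusp6 and Spry2 were the closest pair, at 0.0823, and Spry2 was the 14th nearest candidate to Dusp6. Dusp5 lay at least 0.697 from each of the other 3.

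Facts of the libraries bear on all of these values. The 5 libraries with recovered reads held 264178 to 293198 reads over the 581 genes, and the normalised totals ran from 269580 to 272959 on plates and from 285960 to 296601 on the scaffold. Of 12 fibroblast markers, the collagen genes Col1a1 and Col1a2 had a row, and both were abundant in every library (at least 6607 and 16604) and lower on the scaffold. Among markers of other cell types, 1 of 6 epithelial genes had a row, Krt8, at 13.3 to 17.5 on plates and 29.8 to 37.6 on the scaffold. From the muscle list 1 of 6 had a row, Acta2, at 128 to 161 and 51.5 to 89.5. Acta2 (89.5, 67.8 and 51.5), Col1a1 and Col1a2 fell in the order of the scaffold replicates, as Egr1 did. Egr3 and Hbegf, among others, did not. Of 5 endothelial and 6 leukocyte markers, 0 had a row. The part of these marker genes in the differences of the inhibitors was not tested.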

How the data were processed

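TRIzol extracts of total RNA were sequenced after NEBNext Ultra RNA library preparation, per the labels' protocols. The submitters' processing notes list fastp, HISAT2, HTSeq, DESeq2 and the build GRCm39, with no versions or roles. For each group the authors deposited the values of the 581 selected genes. The deposited values are a normalised signal, the reads of a gene over the size factor of the library. Although named FPKM, 100% of the values in each library were multiples of 1 step (tolerance 0.01 read) at any gene length. The size factors ran from 0.944 to 1.09. In scaffold replicate 3 the step lies close to 1, so its reads were not taken as recovered. Gene lengths are those in the deposited tables and equal the exon length in GENCODE M21 for the 4 inhibitors. Of the 581 identifiers, all were in GENCODE M21 (GRCm38) and 555 had the same span, the 4 inhibitors among them, so coordinates are printed as GRCm38.

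Tables were joined by gene identifier and samples grouped by their labels. limma 3.58.1 (R 4.3.3) was run on log2(value + 1) over all genes with a mean of at least 0.5, with a mean-variance trend, unblocked and two-sided, with Benjamini-Hochberg adjustment and a threshold of 0.05. Standard errors come from this fit. Counting errors are Poisson errors of the recovered reads and cover counting only. As alternatives the pseudocount was 0.1 or 0.01, the filter was dropped or set to a mean of 5, libraries were rescaled to equal medians or quantiles, the replicate number was a block, the trend was dropped, each library was left out, and edgeR 4.0.16 quasi-likelihood was run on the recovered reads of 5 libraries. The fits were tested on simulated data. Promoter windows came from RefSeq (GRCm38.p6) and motifs were matched by letters on both strands. The named genes are the 4 inhibitors, the members of the pathway lists that had a row, and the 3 nearest candidate genes to each inhibitor. The members, lists and tests were chosen with earlier results of these data known. Columns of sample values left unused numbered 0.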

Additional observations from a re-analysis of the deposited data

How the results depend on the processing

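All 4 inhibitors were higher on the scaffold and past the limma or edgeR threshold under each of the 15 alternatives. For each gene, 13 of the alternatives moved the log2 difference by less than the replicate SD, and both rescalings moved it by more. Rescaling the libraries to equal medians gave 2.93 for Dusp5, 1.95 for Dusp6, 1.81 for Dusp9 and 1.87 for Spry2. Quantile normalisation gave 1.75 for Dusp5, 0.59 for Dusp6, 1.28 for Dusp9 and 1.02 for Spry2. These rescalings use only the selected genes, most of which are lower on the scaffold; they shifted the median log2 difference of all genes by 0.74 and 0.63. As deposited, 579 genes were called, 67.7% of them lower; after equal medians and after quantile normalisation 397 were called, 52.4% and 52.9% of them lower. Leaving out 1 library gave 573 to 579 calls, and log2 differences of 2.14 to 2.20 for Dusp5, 1.17 to 1.21 for Dusp6, 1.00 to 1.12 for Dusp9 and 1.07 to 1.16 for Spry2. Deviations of same-numbered libraries correlated at -0.029, 0.073 and 0.058 across genes. Pairs with different numbers ran from -0.103 to 0.034. With 3 libraries per group these values cannot decide whether the replicate numbers pair the libraries. With the replicate number as a block, 580 genes were called. Depth limits Dusp9 most, with a counting error of 6.31% to 7.24% in single plate libraries.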

Other observations

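CArG boxes in the promoter windows of the other genes of the table were counted after the Dusp5 window had been seen. Leaving out Dusp5, 13 of the 357 genes of the table with a RefSeq window held a CArG box in at least 1 of their windows (3.64%). Over all 27024 genes with a window, counted in the same way and also without Dusp5, the share was 1.80%. The 13 genes went in both directions: 4 of the 112 higher genes (3.57%) and 9 of the 245 lower genes (3.67%) had a box. Egr2, an immediate early zinc finger factor, was among the higher ones, at 32.1 ± 6.67 on plates and 72.6 ± 7.14 on the scaffold (SD, n = 3 each). Myl9, a regulatory light chain of smooth muscle myosin, was among the lower ones, at 25.8 ± 1.73 and 6.44 ± 2.83 (n = 3 each). The laminin chain gene Lama2 was lower as well, at 38.6 ± 0.517 and 18.8 ± 2.37 (n = 3 each). Those named are examples. The remaining higher genes, Gm3173, Gm3739 and Krt12, had low counts, with group means of at most 41.6. Ampd3, the most abundant of the 13, was lower, with means of 993 on plates and 417 on the scaffold. Whether the boxes bear on the direction was not tested.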
